A study of Mus musculus with 4 samples.

Results

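The acute-phase response was examined through 8 genes, Saa1, Saa2, Saa3, Lcn2, Hp, Lrg1, Ptx3 and Steap4, among the 32286 features counted in single cells of the mouse distal jejunum. The genes were found by symbol, and they were chosen by their place in the acute-phase response and, for Saa1 and Saa3, because earlier results of these data had them higher in EC-Foxc-DKO cells. The difference between genotypes in Saa1 and Saa3 is therefore given as a description with no test. Jejuna were digested 18.5 h after small intestinal ischemia and reperfusion (I/R), an injury made by closing and reopening the gut's blood supply. Both control mice carried Foxc1fl/fl and Foxc2fl/fl, the loxP-flanked alleles, with no Cre. Both EC-Foxc-DKO mice carried the same alleles and Cdh5-CreERT2, a Cre recombinase that the Cdh5 promoter drives in blood and lymphatic endothelial cells and that tamoxifen activates. All 4 mice had the surgery, so that no uninjured gut stands beside these values, and each mouse was 1 library.

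In the acute-phase response, cytokines such as IL-1, IL-6 and TNF switch on genes for secreted defense and transport proteins through the transcription factors NF-kB, STAT3 and C/EBP. The liver is the main source of these proteins in blood, but gut epithelium, phagocytes, vessels and fibroblasts make several of them locally. Saa1 and Saa2 encode serum amyloid A proteins that travel on lipoproteins, and Saa3 encodes a form made mainly outside the liver. Lcn2 (lipocalin 2) withholds iron by binding bacterial siderophores, Hp (haptoglobin) binds free hemoglobin, Lrg1 is a secreted glycoprotein that modulates TGF-beta signaling in vessels, Ptx3 is a long pentraxin that marks microbes for uptake, and Steap4 is a metalloreductase of the cell surface.

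A unique molecular identifier (UMI) marks each captured RNA molecule, so that copies made in amplification count once. The libraries held 3623 to 7347 barcodes and 15557181 to 72046346 UMIs, and the median share of mitochondrial UMIs per barcode ran from 14.98% in EC-Foxc-DKO 1 to 54.0% in control 2. After removal of barcodes over 10% mitochondrial UMIs, 5615 of 22679 remained, 1446 and 348 from controls 1 and 2 and 2742 and 1079 from EC-Foxc-DKO 1 and 2. Control 2 stood apart with the fewest cells, and median UMIs per kept cell were 14740 and 6486 in the controls and 4254.5 and 19871 in EC-Foxc-DKO mice. The 4 classes described here held 2377 epithelial, 504 myeloid, 190 endothelial and 127 stromal cells, and the summed markers of each class were high in every mouse, although 5 of the 17 endothelial markers had no UMI in the 24 endothelial cells of EC-Foxc-DKO 2. Foxc1 had 2 and 9 UMIs in endothelial cells of controls 1 and 2 and 1 and 0 in those of EC-Foxc-DKO 1 and 2, Foxc2 had none in any kept cell, and the Cre sequence had 3 and 2 UMIs in endothelial cells of EC-Foxc-DKO mice and none in the controls. A barcode occurred in more than 1 library 51 times, of which 2 were kept in both.

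Levels are given in CPM, UMIs of a gene per 1000000 UMIs of all genes in the same cells and mouse. Cell types carry the names of the study's marker table with "-like", because they were rebuilt from its markers. A cluster that held markers of the study's Macrophage 1 was led by Retnlg, S100a9, S100a8 and Cxcr2, genes known from neutrophils, and is called the S100a8/S100a9 cluster. An epithelial cluster led by Sprr2a3, Gml2 and Dsg3 is called after these genes, and the stromal cluster joined fibroblast genes (Dpt, Lum, Pdgfra) with smooth muscle genes (Myh11, Pln).

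By pooled UMIs, the 8 genes differed in their source cells, although Saa1 and Saa2 shared the enterocytes, Saa3 and Hp the myeloid cells, and Steap4 and Ptx3 the stroma. Epithelial cells held 98.6% of the 933 Saa1 UMIs, 95.5% of the 22 Saa2 UMIs and 92.8% of the 9056 Lcn2 UMIs. The Lcn2 share came from EC-Foxc-DKO 2, whose epithelium held 8138 of its 8374 Lcn2 UMIs. Epithelial cells held 22 of 177 in control 1, 63 of 158 in control 2 and 184 of 347 in EC-Foxc-DKO 1. Myeloid cells held 90.5% of the 2855 Saa3 UMIs and 98.1% of the 683 Hp UMIs. Lrg1 was spread wider, with 48.5% of its 1143 UMIs in endothelial, 32.0% in myeloid and 18.9% in epithelial cells. Stromal cells held 84.4% of the 192 Steap4 UMIs and all 26 Ptx3 UMIs. In control 1, however, they held 2 of 13 Steap4 UMIs, and the S100a8/S100a9 cluster held 11. In EC-Foxc-DKO 2 they held 2 of 8. Shares of UMIs depend on how many cells of a type were captured and how deeply. The plot of levels by cell type removes this between types. It pools the mice, however, so that a mouse with more UMIs of a type weighs more.

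**Figure D1:**
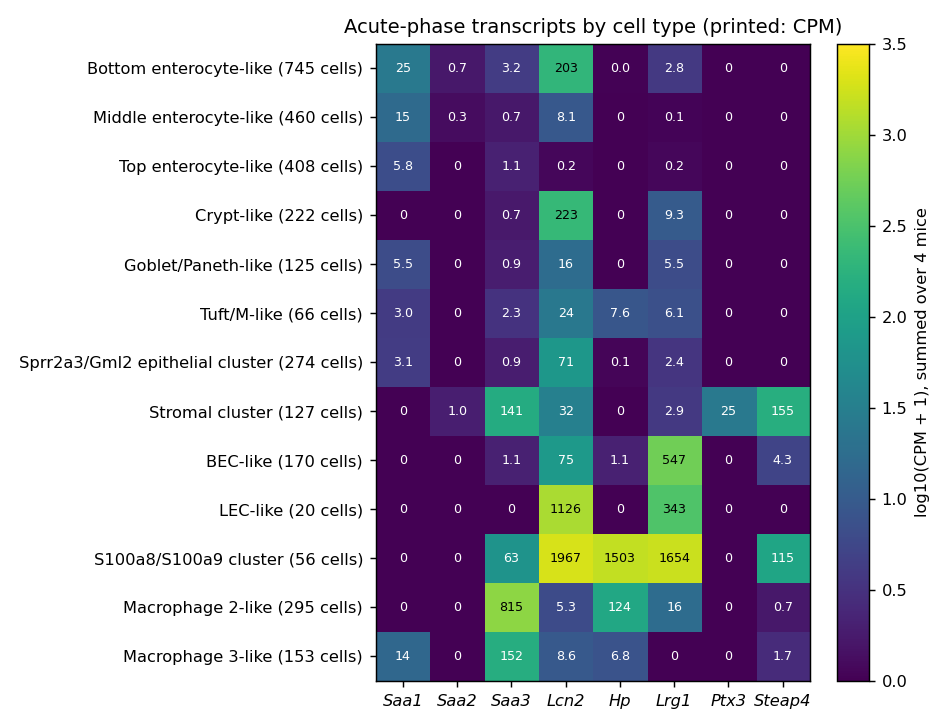
Level of each of the 8 genes in 13 cell types, in CPM from the UMIs of all 4 mice together, with color on a log10(CPM + 1) scale, columns for genes and rows for cell types with their number of cells. Saa1 was highest in Bottom enterocyte-like cells (25.2 CPM), where EC-Foxc-DKO 2 gave 615 of the 639 UMIs. In control 1 and EC-Foxc-DKO 1 these cells were below Middle and Top enterocyte-like cells. Saa3 was highest in Macrophage 2-like cells (815 CPM). Lcn2, Hp and Lrg1 were highest in the S100a8/S100a9 cluster (1967, 1503 and 1654 CPM). Of these, Lcn2 rests on 6 cells of EC-Foxc-DKO 2 and was 992 CPM in control 1, against 1009 CPM in its LEC-like cells. Steap4 was highest in the stromal cluster (155 CPM).

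The serum amyloid A genes lie side by side on mouse chromosome 7 (GRCm38, GENCODE annotation). Saa3 lies at chr7:46711998-46715700 and Saa1 at chr7:46740497-46742980, both on the minus strand, and Saa2 lies at chr7:46751790-46754313 on the plus strand. Their promoters are shown because the paralogs differed in source cells. That of Lcn2 is shown because most of its pooled UMIs, like those of Saa1, were epithelial. Each sequence runs 5′ to 3′ from 250 bases before to 50 after the start of the gene as RefSeq places it (GRCm38.p6), and capitals mark a match of TTGCNNAA on either strand, a short form of the C/EBP motif.
Saa1: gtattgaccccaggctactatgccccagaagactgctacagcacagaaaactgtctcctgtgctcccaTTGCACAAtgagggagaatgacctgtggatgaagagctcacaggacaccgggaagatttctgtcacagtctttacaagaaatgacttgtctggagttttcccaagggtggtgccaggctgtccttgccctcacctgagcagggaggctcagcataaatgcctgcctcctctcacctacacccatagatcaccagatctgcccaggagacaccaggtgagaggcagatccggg
Saa2: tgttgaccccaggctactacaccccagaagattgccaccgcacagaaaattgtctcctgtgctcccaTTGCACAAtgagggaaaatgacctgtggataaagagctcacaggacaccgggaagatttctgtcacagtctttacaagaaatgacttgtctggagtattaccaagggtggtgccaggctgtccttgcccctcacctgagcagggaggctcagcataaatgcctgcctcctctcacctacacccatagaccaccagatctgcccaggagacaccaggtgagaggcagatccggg
Saa3: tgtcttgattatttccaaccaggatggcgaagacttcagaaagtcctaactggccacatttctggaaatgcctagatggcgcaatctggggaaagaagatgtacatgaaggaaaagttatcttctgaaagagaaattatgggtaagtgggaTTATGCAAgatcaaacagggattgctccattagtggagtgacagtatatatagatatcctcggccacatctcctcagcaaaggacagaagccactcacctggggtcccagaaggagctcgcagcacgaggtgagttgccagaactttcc
Lcn2: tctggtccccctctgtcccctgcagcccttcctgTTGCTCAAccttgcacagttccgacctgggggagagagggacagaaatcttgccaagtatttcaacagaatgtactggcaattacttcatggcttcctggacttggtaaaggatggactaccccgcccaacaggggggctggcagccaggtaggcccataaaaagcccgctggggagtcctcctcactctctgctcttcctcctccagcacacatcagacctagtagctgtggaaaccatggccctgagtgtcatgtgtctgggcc
These windows are chr7:46742931-46743230 (minus strand) for Saa1, chr7:46751583-46751882 (plus strand) for Saa2, chr7:46715627-46715926 (minus strand) for Saa3 and chr2:32387690-32387989 (minus strand) for Lcn2. RefSeq and GENCODE differ in some starts, and the Lcn2 window lies wholly within the GENCODE gene. The Saa1 and Saa2 windows were identical at 287 of 301 aligned positions (95.3%), whereas Saa1 and Saa3 were identical at 173 of 325 (53.2%). The match began at position -182 from the start of Saa1, -183 of Saa2, -99 of Saa3 and -216 of Lcn2. Ptx3 and Steap4 held it too, Lrg1 did not, and no entry was at hand for Hp, so that 6 of the 7 promoters held a match against 10.8% of 32851 mouse promoters. TTCNNNGAA, a STAT motif, was found in Steap4 alone of the 7 (8.30% of all promoters), and the NF-kB motif in Ptx3 alone (1.20%), each on either strand. A match describes letters in this window and no binding was measured.

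Saa1 was an enterocyte transcript, with none of its UMIs in endothelial or stromal cells, 8 in 1 Macrophage 3-like cell and 5 in 1 Plasma-like cell. In epithelial cells it stood at 2.70 CPM in control 1, 1.48 in control 2, 11.1 in EC-Foxc-DKO 1 and 30.0 in EC-Foxc-DKO 2, from 75, 3, 200 and 642 UMIs. Both EC-Foxc-DKO mice lay above both controls, which is the pattern it was chosen for, and its log2 fold change was 3.08 with an SE of 0.61 (2 mice against 2). The enterocyte type behind this level differed between the mice. In EC-Foxc-DKO 2, Bottom enterocyte-like cells, led by the antimicrobial lectin gene Reg3a, held 615 of the UMIs at 69.1 CPM, against 0.608 and 3.31 CPM in controls 1 and 2 and 2.63 CPM in EC-Foxc-DKO 1. In EC-Foxc-DKO 1, Middle enterocyte-like cells held 158 UMIs at 33.3 CPM, against 5.23 CPM in the same cells of control 1 and no UMI in the 13 such cells of control 2. EC-Foxc-DKO 2 had only 6 Middle enterocyte-like cells, at 8.87 CPM from 1 UMI, and EC-Foxc-DKO 1 had 143 Bottom enterocyte-like cells. Top enterocyte-like cells were at 5.81 CPM in control 1 and 6.03 CPM in EC-Foxc-DKO 1, and Crypt-like cells had no Saa1 UMI in any mouse.

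Few cells carried most of the Saa1 RNA. Of the 344 Bottom enterocyte-like cells of EC-Foxc-DKO 2, 81 had a Saa1 UMI (23.5%), and 11 of them held at least 50% of the UMIs. Of the 173 Middle enterocyte-like cells of EC-Foxc-DKO 1, 11 had one, and 3 held at least 50%. When each cell was thinned to 1000 UMIs to even out depth, the share in Bottom enterocyte-like cells was 0.0640% in control 1, 0.842% in control 2, 0.297% in EC-Foxc-DKO 1 and 5.42% in EC-Foxc-DKO 2. None of 1379 Follicular B-like cells (median 3248 UMIs, 34 of them from EC-Foxc-DKO 2) had a Saa1 UMI, against a median of 31327 UMIs in Bottom enterocyte-like cells. At a finer clustering, the Bottom enterocyte-like cells of EC-Foxc-DKO 2 split into groups of 108, 99 and 135 cells with Saa1 at 139.9, 95.9 and 7.03 CPM, so that the gene was uneven within the type. Epithelial cells held summed myeloid markers at 131.8, 43.5, 130.4 and 91.8 CPM in controls 1 and 2 and EC-Foxc-DKO 1 and 2. Their part in the epithelial Saa1 was not tested.

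Saa2 gave 22 UMIs in all kept cells, of which 16 came from 6 Bottom enterocyte-like cells of EC-Foxc-DKO 2, and each of these 6 cells also had Saa1. In epithelial cells it was at 0.0719 and 1.48 CPM in the controls and at 0 and 0.749 CPM in EC-Foxc-DKO mice, and the groups overlapped. A log2 fold change of 0.18 resulted (SE 1.85, edgeR adjusted p = 1.00), against -0.69 with DESeq2. Of the windows of 50 bases in the longest Saa1 transcript, 13.2% also occurred in Saa2 transcripts, and reads in them cannot be assigned to 1 of the paralogs, so that both counts are uncertain.

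By pooled UMIs, Saa3 was mainly a transcript of monocytes and macrophages. In myeloid cells it was at 529 CPM in control 1, 2.69 in control 2, 665 in EC-Foxc-DKO 1 and 1282 in EC-Foxc-DKO 2. Both EC-Foxc-DKO mice lay above both controls, as it had been chosen for, but control 1 was near EC-Foxc-DKO 1 and far above control 2. The log2 fold change was 1.83 with an SE of 1.38, and it was 8.43 without control 1 and 0.87 without control 2. Macrophage 2-like cells, led by the monocyte chemokine genes Ccl12, Ccl7 and Ccl2 and by Arg1, held 87.0% of all Saa3 UMIs, at 653 CPM in control 1, 2.92 in control 2, 823 in EC-Foxc-DKO 1 and 1481 in EC-Foxc-DKO 2. A UMI was found in 27 of 71, 1 of 36, 37 of 93 and 45 of 95 of these cells, so that control 2 differed from the other mice in the share of cells as well. After thinning to 1000 UMIs the shares were 17.5%, 0.125%, 20.4% and 33.2%. Expression was uneven here too, and 11 of the 295 cells held at least 50% of the UMIs, the highest with 198. The sparse Saa3 of Macrophage 3-like cells, 18 UMIs in control 1 and 71 in EC-Foxc-DKO 1, came from 5 cells.

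By pooled UMIs, a smaller Saa3 source lay in the stroma. In control 2, however, stromal cells held 12 of the 21 Saa3 UMIs and Macrophage 2-like cells 1. Stromal cells were at 13.9 CPM in control 1, 34.2 in control 2, 217.5 in EC-Foxc-DKO 1 and 118.2 in EC-Foxc-DKO 2, from 1, 12, 132 and 2 UMIs. Both EC-Foxc-DKO mice lay above both controls, the rise Saa3 was chosen for, and this order held for 14.9% of all genes tested in stromal cells. The log2 fold change was 2.57 (SE 0.74), given as a description. EC-Foxc-DKO 2 had only 3 stromal cells, 1 cell of EC-Foxc-DKO 1 held 67 of its 132 UMIs, and 1 cell of control 2 held all 12. At the finer clustering all 147 stromal Saa3 UMIs lay in the part with fibroblast genes (82 cells, 200.3 CPM) and none in the Myocyte/Pericyte-like part. Summed myeloid markers in stromal cells were 27.9 and 42.8 CPM in controls 1 and 2 and 136.8 and 59.1 CPM in EC-Foxc-DKO 1 and 2, with 8 to 18 of the 19 markers at 0, and their part in the stromal Saa3 was not tested. In epithelial cells Saa3 was at 0.503, 3.96, 0.612 and 3.93 CPM in the same order of mice, and the groups overlapped. Endothelial cells had 1 Saa3 UMI.

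**Figure D2:**
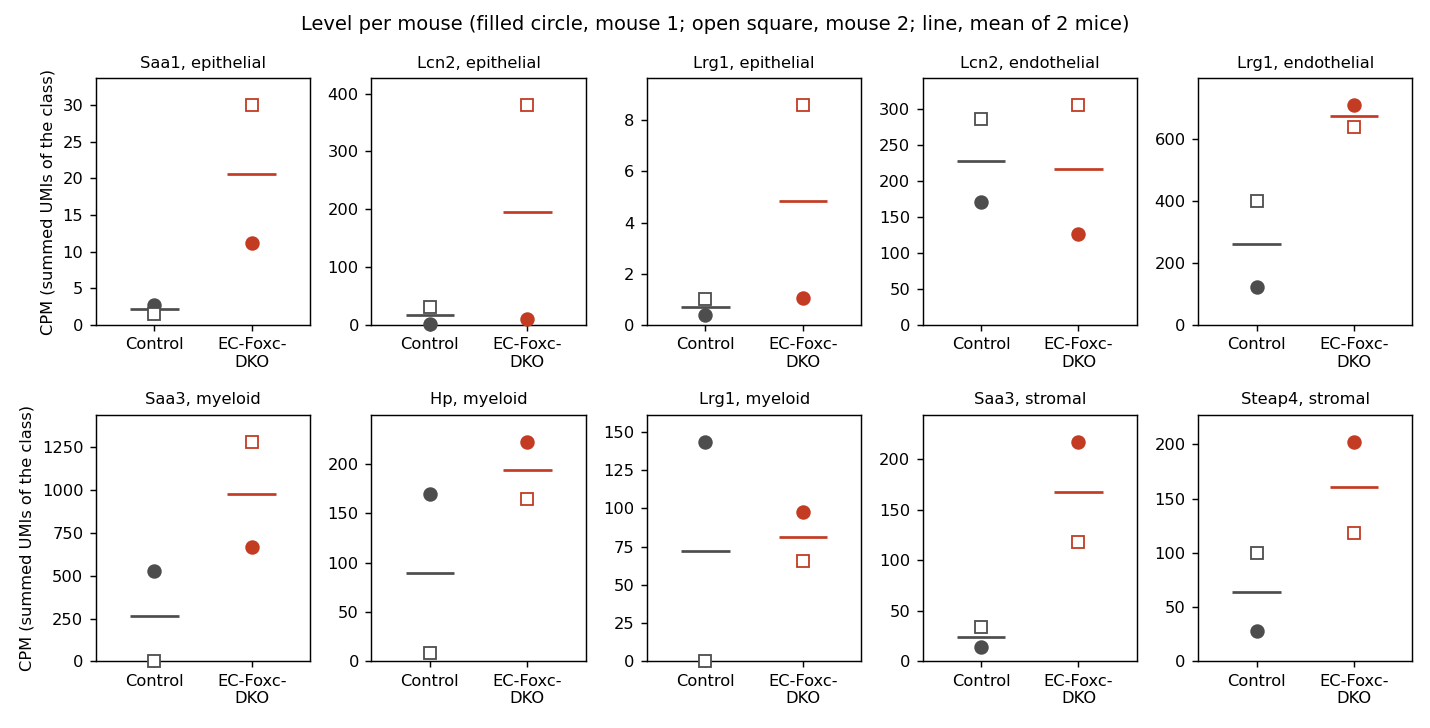
Level per mouse in 10 pairs of gene and cell class, with CPM of the summed class on the vertical axis of each panel, controls in gray, EC-Foxc-DKO mice in red, a filled circle for mouse 1, an open square for mouse 2 and a line at the mean of each genotype. Both EC-Foxc-DKO mice were above both controls for epithelial Saa1 and Lrg1, endothelial Lrg1, myeloid Saa3, and stromal Saa3 and Steap4. Saa1 and Saa3 were chosen for this, and stromal values of EC-Foxc-DKO 2 rest on 2 UMIs each. The same order held for 10.2% of all genes tested in epithelial, 17.7% in endothelial, 16.8% in myeloid and 14.9% in stromal cells. Lcn2 in epithelial cells was high in EC-Foxc-DKO 2 (381 CPM) and low in EC-Foxc-DKO 1 (10.2 CPM).

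Lcn2 (chr2:32384633-32388252, minus strand) was high in the epithelium of 1 mouse. Epithelial cells were at 0.791 CPM in control 1, 31.2 in control 2, 10.2 in EC-Foxc-DKO 1 and 381 in EC-Foxc-DKO 2, and the groups overlapped. The epithelium of EC-Foxc-DKO 2 alone held 8138 of all 9056 Lcn2 UMIs. The log2 fold change of 3.91 (SE 1.90, edgeR adjusted p = 1.00) was -0.33 without EC-Foxc-DKO 2. With no filter on low genes or with the mouse number as a block it passed the test, at 3.96 (edgeR adjusted p = 7.89e-14) and 3.68 (edgeR adjusted p = 0.00994). Other genes passed in these fits too, and their counts are given below. The high level ran through several but not all epithelial types of that mouse. It was 566 CPM in Bottom enterocyte-like cells, 390.1 in Crypt-like cells, 434 in its 6 Middle enterocyte-like cells and 129.6 in the Sprr2a3/Gml2 cluster. Goblet/Paneth-like cells were at 38.8 CPM, with 20 of 36 UMIs in 1 cell. Tuft/M-like cells were at 3.66 CPM, against 53.9 in EC-Foxc-DKO 1, and Enteroendocrine cell 1-like cells at 3.56 CPM. In control 2, the 13 Middle enterocyte-like cells were at 108.0 CPM, from 2 cells. Bottom enterocyte-like cells were at 1.22 CPM in control 1, 28.7 in control 2 and 11.4 in EC-Foxc-DKO 1, and there 1 cell held 31 of the 65 UMIs of EC-Foxc-DKO 1. In Crypt-like cells, the dividing cells marked by Olfm4 and Pbk, the order was 4.04, 5.83, 22.5 and 390.1 CPM, and both EC-Foxc-DKO mice were above both controls, with a log2 fold change of 5.48 (SE 1.43, edgeR adjusted p = 0.999). Without EC-Foxc-DKO 1, the log2 fold change of Lcn2 was 6.38 in Crypt-like cells and 6.89 in Bottom enterocyte-like cells. Over the fits with 1 mouse left out, it ran from 2.31 to 6.38 in Crypt-like and from 0.81 to 7.95 in Bottom enterocyte-like cells.

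Lcn2 was shared by many cells of EC-Foxc-DKO 2, unlike the few that held Saa1. Of its 344 Bottom enterocyte-like cells 206 had a UMI (59.9%), and of its 144 Crypt-like cells 126 (87.5%), against 3.11% to 12.1% and 15% to 32.6% in the other mice. After thinning, the shares of EC-Foxc-DKO 2 were 28.4% and 27.1%, and the highest share in the other mice was 1.65% and 3.76%. Of 1379 Follicular B-like cells 2 had one (0.145%), but 1205 of them were from EC-Foxc-DKO 1, and EC-Foxc-DKO 2 gave 0 of 34, which allows a share of up to 8.82%. In those Bottom enterocyte-like cells, Lcn2 was found in 61.7% of the cells with Saa1 and in 59.3% of the cells without it, so that presence of the one said little of the other. The finer groups of 108, 99 and 135 cells had Lcn2 at 610 CPM, 328 CPM and 672 CPM, and the group lowest in Saa1 was highest in Lcn2.

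**Figure D3:**
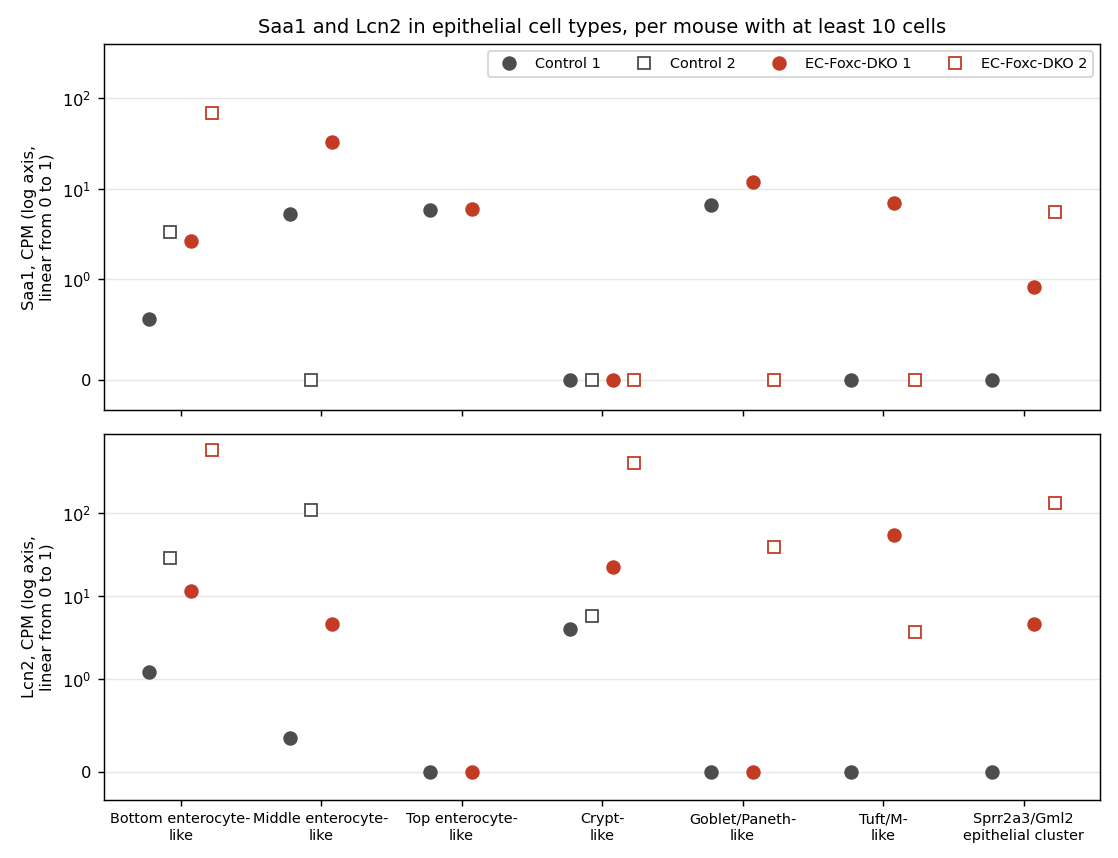
Saa1 (top) and Lcn2 (bottom) in 7 epithelial cell types, with CPM on a log axis that is linear from 0 to 1, and 1 point per mouse with at least 10 cells of that type (gray, control; red, EC-Foxc-DKO; filled circle, mouse 1; open square, mouse 2). Lcn2 of EC-Foxc-DKO 2 was above the other mice in Bottom enterocyte-like and Crypt-like cells, while the highest Saa1 was in Bottom enterocyte-like cells of EC-Foxc-DKO 2 (69.1 CPM) and Middle enterocyte-like cells of EC-Foxc-DKO 1 (33.3 CPM).

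Lymphatic endothelial cells were another source of Lcn2. The 20 LEC-like cells, marked by Mmrn1, Reln and Flt4, were at 1009 CPM in control 1, 1163 CPM in control 2 and 1131 CPM in EC-Foxc-DKO 1, from 5, 10 and 5 cells, and EC-Foxc-DKO 2 gave none. These levels were close across the 3 mice, and 17 of the 20 cells had a UMI, but 1 cell of EC-Foxc-DKO 1 held 34 of its 43 UMIs. In BEC-like cells, the blood endothelium, Lcn2 was at 47.1, 40.1, 40.5 and 306 CPM in controls 1 and 2 and EC-Foxc-DKO 1 and 2, so that EC-Foxc-DKO 2 was again above the other mice. Endothelial cells together were at 170.0, 286, 126.3 and 306 CPM, and the groups overlapped (log2 fold change -0.22, SE 0.46, edgeR adjusted p = 0.999). LEC-like cells made up 13.9% and 25.6% of the endothelial cells of controls 1 and 2, 5.49% of those of EC-Foxc-DKO 1 and none of those of EC-Foxc-DKO 2, and the part of this mix in the endothelial level was not tested. In the S100a8/S100a9 cluster Lcn2 was at 992 CPM in control 1, 1429 in EC-Foxc-DKO 1 and 10947 in EC-Foxc-DKO 2, where all 6 cells had a UMI and 1 held 87 of the 181. Myeloid cells together were at 110.1, 0, 49.4 and 270.3 CPM in controls 1 and 2 and EC-Foxc-DKO 1 and 2, with overlapping groups and a log2 fold change of 1.36 (SE 1.25, edgeR adjusted p = 1.00). Epithelium, BEC-like cells and the S100a8/S100a9 cluster of EC-Foxc-DKO 2 were thus each above those of the other mice. In stromal cells Lcn2 was at 13.9, 34.2, 34.6 and 0 CPM.

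Hp (chr8:109575128-109579172, minus strand) was a myeloid transcript in every mouse. Myeloid cells were at 170.0 CPM in control 1, 8.07 in control 2, 222.7 in EC-Foxc-DKO 1 and 164.4 in EC-Foxc-DKO 2, and control 1 lay between the EC-Foxc-DKO mice, for a log2 fold change of 1.01 (SE 0.93, edgeR adjusted p = 1.00). The S100a8/S100a9 cluster was highest, at 1080.4 CPM in control 1, 2408 in EC-Foxc-DKO 1 and 1875 in EC-Foxc-DKO 2, from 30, 20 and 6 cells, and control 2 had no cell of it. Macrophage 2-like cells were lower, at 63.9 CPM in control 1, 8.76 in control 2, 193.9 in EC-Foxc-DKO 1 and 140.0 in EC-Foxc-DKO 2, with both EC-Foxc-DKO mice above both controls. The difference on the log2 scale was 2.01 (SE 0.62, unadjusted p = 0.0108, edgeR adjusted p = 1.00). It was 4.23 without control 1 and 2.23 without EC-Foxc-DKO 2, and the lowest value with 1 mouse left out was 1.36. A UMI was found in 33.8%, 5.56%, 53.8% and 34.7% of these cells in controls 1 and 2 and EC-Foxc-DKO 1 and 2, and in 6.74%, 0.459%, 15.4% and 11.6% after thinning. Of the Macrophage 2-like cells with Saa3, pooled over mice, 51.8% had Hp, against 28.1% of those without. Per mouse this was 37.0% against 31.8% in control 1, 73.0% against 41.1% in EC-Foxc-DKO 1 and 44.4% against 26% in EC-Foxc-DKO 2. In control 2 only 1 cell had Saa3, and it had no Hp.

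By pooled UMIs, Lrg1 (chr17:56119678-56122001, minus strand) had its largest share in endothelial cells. In control 1, however, myeloid cells held 163 of its 195 UMIs, and in EC-Foxc-DKO 2 epithelial cells held 184 of 307. Endothelial cells held 115 of 117 in control 2 and 343 of 524 in EC-Foxc-DKO 1. Endothelial levels were 123.1 CPM in control 1, 401 in control 2, 710.2 in EC-Foxc-DKO 1 and 637 in EC-Foxc-DKO 2. Both EC-Foxc-DKO mice were above both controls, by 1.32 on the log2 scale (SE 0.47, unadjusted p = 0.0188, edgeR adjusted p = 0.957). Over the fits with 1 mouse left out, the log2 fold change ran from 0.74 to 2.43, the latter without control 2. With no filter on low genes Lrg1 passed the test (1.32, edgeR adjusted p = 0.0170), as did other genes of these cells, counted below. BEC-like cells had the same order, at 127.7, 459, 708 and 637 CPM, with a log2 fold change of 1.16 (SE 0.48, edgeR adjusted p = 0.999), and LEC-like cells were at 91.8 CPM in control 1, 191.2 CPM in control 2 and 736 CPM in EC-Foxc-DKO 1, from 2, 12 and 28 UMIs. Single cells weighed heavily in these sums. In control 2, 1 BEC-like cell held 79 of the 103 UMIs, in EC-Foxc-DKO 1 the highest of 86 cells held 82 of 315, and in EC-Foxc-DKO 2 the highest of 24 cells held 31 of 75. The shares of BEC-like cells with a UMI were 22.6%, 31.0%, 33.7% and 54.2%, and 9.78%, 12.7%, 18.4% and 27.2% after thinning, in the same order of mice. Of BEC-like cells with an Lcn2 UMI, 77.8% also had Lrg1, against 25.9% of those without. The cells with Lcn2 were deeper, with a median of 7488 UMIs against 3849, and the part of depth in this was not tested. Summed myeloid markers in endothelial cells were 2187 and 17.4 CPM in controls 1 and 2 and 60.0 and 76.5 CPM in EC-Foxc-DKO 1 and 2. Their part in the endothelial Lrg1 was not tested.

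The S100a8/S100a9 cluster had higher Lrg1 levels than the endothelial types in each mouse that held it, at 1185 CPM in control 1, 2604 in EC-Foxc-DKO 1 and 2238 in EC-Foxc-DKO 2. As control 2 had no such cell, myeloid Lrg1 was at 143.6, 0, 97.6 and 65.5 CPM, and its log2 fold change of 0.04 (SE 1.09, edgeR adjusted p = 1.00) was near 0. Of the cells of this cluster with Hp, 90.7% also had Lrg1. In epithelial cells Lrg1 was at 0.395 and 0.990 CPM in the controls and 1.06 and 8.61 CPM in EC-Foxc-DKO 1 and 2, with a log2 fold change of 3.17 (SE 1.17, unadjusted p = 0.0309, edgeR adjusted p = 1.00). Of the 184 epithelial Lrg1 UMIs of EC-Foxc-DKO 2, 99 were in Crypt-like cells, at 16.0 CPM, and EC-Foxc-DKO 1 was close to control 2. The epithelial class held different types in each mouse, with Crypt-like cells at 2.18%, 18.8%, 6.90% and 19.1% and Middle enterocyte-like cells at 29.2%, 16.2%, 27.8% and 0.795% of it in controls 1 and 2 and EC-Foxc-DKO 1 and 2, and the part of this mix in the class levels of Lrg1, Lcn2 and Saa1 was not tested.

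Steap4 (chr5:7960457-7982213, plus strand) was at 27.9 CPM in stromal cells of control 1, 99.8 in control 2, 202.7 in EC-Foxc-DKO 1 and 118.2 in EC-Foxc-DKO 2. Both EC-Foxc-DKO mice were above both controls, but EC-Foxc-DKO 2 rests on 2 UMIs, and the log2 fold change of 1.14 had an SE of 0.77 (edgeR adjusted p = 1.00). Steap4 was found in 29 of the 127 stromal cells. At the finer clustering 152 of the 162 UMIs lay in the part with fibroblast genes, at 207.1 CPM, and 10 in the Myocyte/Pericyte-like part, at 32.0 CPM. Of the 11 stromal cells with Saa3, 6 had Steap4, against 19.8% of the others. The cells with Saa3 had a median of 7442 UMIs against 5789, and the part of depth was not tested. The S100a8/S100a9 cluster had Steap4 at 88.7 CPM in control 1, 195.8 in EC-Foxc-DKO 1 and 60.5 in EC-Foxc-DKO 2, and the 2377 epithelial cells had none.

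Ptx3 (chr3:66219910-66225805, plus strand) was found, among the kept cells, in 5 stromal cells of EC-Foxc-DKO 1, with 26 UMIs and a level of 42.8 CPM in that class. The removed barcodes of EC-Foxc-DKO 2 held 3 more UMIs. In the 39 stromal cells of control 2 a count of 0 allows up to 8.56 CPM, in the 14 of control 1 up to 41.8 CPM and in the 3 of EC-Foxc-DKO 2 up to 177.3 CPM, so that a difference between genotypes was not detectable at this depth. Such limits are 3 UMIs over the total and cover counting error only. Of the 5 cells, 2 had Saa3 and 3 had Steap4.

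The comparison between genotypes asked which acute-phase genes differ when Foxc1 and Foxc2 are lost from the endothelium. Saa2, Lcn2, Hp, Lrg1 and Steap4 did not pass edgeR's quasi-likelihood test at an adjusted p of 0.05 in any class where tested. Ptx3 passed the gene filter in no class, and no test of Saa1 or Saa3 is read. No other gene passed in epithelial (12334 genes), stromal (4088), endothelial (4109) or myeloid cells (7549), a background of 0%. The same 0% held for BEC-like (3512 genes), Bottom enterocyte-like (9782), Crypt-like (9278) and Macrophage 2-like cells (6850). At an unadjusted p under 0.05 there were 173, 16, 195 and 135 genes in the 4 classes, and DESeq2 called 7, 0, 2 and 0. Apart from Saa1 and Saa3, 3 epithelial, 2 endothelial, 3 myeloid and 1 stromal members were tested, and both EC-Foxc-DKO mice lay above both controls for Lrg1 in the epithelium, Lrg1 in the endothelium, none in myeloid cells and Steap4 in the stroma. The same held for 10.2% of all genes tested in epithelial, 17.7% in endothelial, 16.8% in myeloid and 14.9% in stromal cells. Within types it held for Lrg1 in BEC-like cells (15.9% of all genes), Lcn2 in Crypt-like cells (13.3%) and Hp in Macrophage 2-like cells (17.3%), and not for Lcn2 in Bottom enterocyte-like cells (15.9%) or Lrg1 in Macrophage 2-like cells, which was at 18.0, 0, 19.3 and 16.1 CPM in controls 1 and 2 and EC-Foxc-DKO 1 and 2. A test of whether the change differed between the 4 classes called 4 of 10116 genes (0.0395%), none of them a member, and its unadjusted p was 0.176 for Lcn2, 0.0295 for Hp, 0.204 for Lrg1 and 0.199 for Steap4 (edgeR adjusted p = 1.00 for each). With 2 mice per genotype an exact permutation test of 1 value cannot go below p = 0.333. The p-values given come from edgeR's model, which takes each gene's spread between mice partly from the other genes tested. A low p-value is therefore no measure of how alike the mice of a genotype were.

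**Figure D4:**
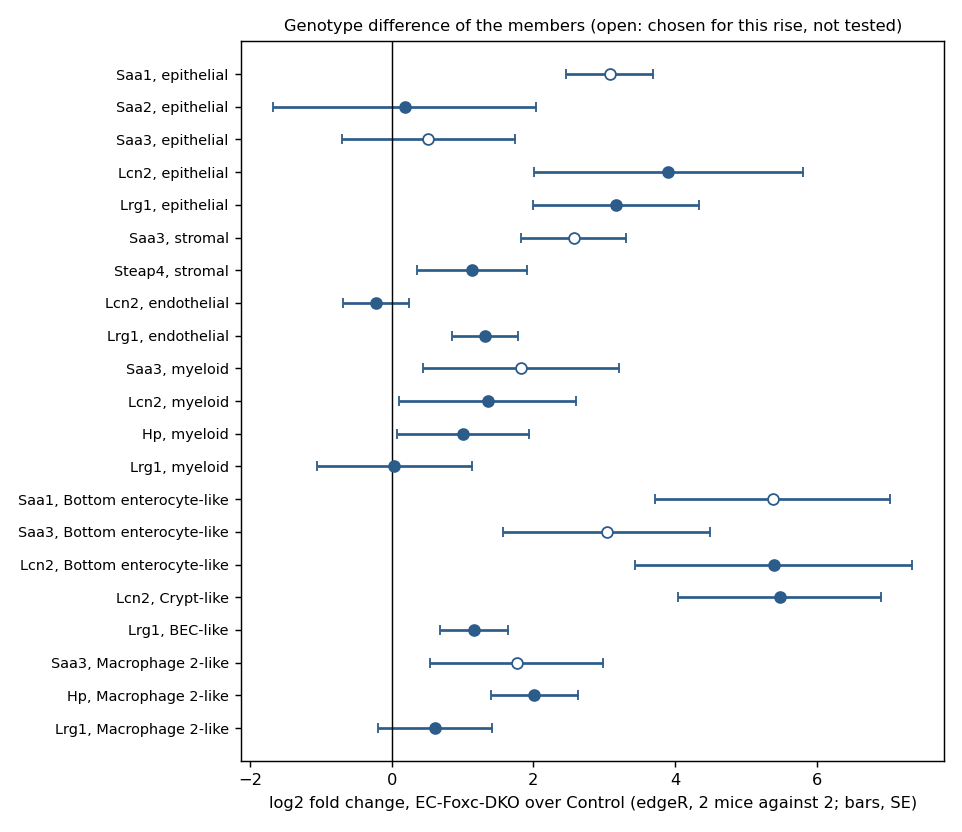
Log2 fold change of EC-Foxc-DKO over control for every member and cell group tested, as points on the horizontal axis with bars of 1 SE (edgeR, 2 mice against 2). Open points are Saa1 and Saa3, which were chosen for this rise and not tested. The bars were widest for Lcn2 in Bottom enterocyte-like cells (5.40, SE 1.95) and Lcn2 in epithelial cells (3.91, SE 1.90), where EC-Foxc-DKO 2 was far above the other mice.

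Over 65 sums of 1 mouse and 1 cell type with at least 10 cells, the genes whose log2(CPM + 1) was most like that of a member were named as a description, since the sums share libraries and differ in depth. Hp was nearest to Csf3r, Clec4d and Cd300ld (Pearson's r of 0.95, 0.95 and 0.95), of which Csf3r encodes the receptor of G-CSF on neutrophils. Saa3 was nearest to Slc11a1 (r = 0.79), a phagosomal metal transporter, then to Tfec (0.77) and the Fc receptor gene Fcgr4 (0.74). Saa1 was nearest to Gm34777 (0.75), the peroxisomal oxidase gene Acox2 (0.68) and 4933405D12Rik (0.63). Lrg1 was nearest to Snai1 (0.78), Mctp1 (0.76) and Selp (0.76), which encodes P-selectin. Lcn2 was nearest to Lrg1 itself (0.72), then to Nqo1 (0.62) and Tgm2 (0.60), and Steap4 to Ifitm1 (0.74), Crispld2 (0.74) and Ggt5 (0.72). Between members, r was 0.70 for Saa3 and Hp and 0.02 for the paralogs Saa1 and Saa3.

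The genes around the members were read from lists of the same pathway. Of 24 other acute-phase genes, 5 were tested in epithelial, 6 in stromal, 2 in endothelial and 4 in myeloid cells, and none was called in either direction. Their median log2 fold change was -0.82 in epithelial, 0.21 in stromal, -1.73 in endothelial and 0.20 in myeloid cells, against 0.00, -0.11, 0.01 and 0.00 for all genes tested. The most abundant was C3, the central complement component, at 2184 ± 1652 CPM in stromal cells (mean ± SD, n = 4 mice) and 3.12 ± 4.57 in epithelial cells, followed by the protease inhibitor gene Serpina3n (846 ± 545 in stromal cells) and the complement genes C4b (444 ± 272 in stromal cells) and Cfb (187.9 ± 129.2 in stromal and 96.8 ± 31.3 in epithelial cells). The lowest unadjusted p was that of Cp, the ferroxidase ceruloplasmin, in endothelial cells (log2 fold change -2.26, SE 0.50, edgeR adjusted p = 0.421). It was not tested in BEC-like cells, where it did not pass the filter, and EC-Foxc-DKO mice had the lower shares of LEC-like cells given for Lcn2. The part of this mix was not tested.

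Of 9 inducing cytokines, 2 were tested in epithelial and 4 in myeloid cells and none was called. The 4 most abundant were highest in myeloid cells, with Il1b at 2488 ± 1419 CPM, Osm at 412 ± 191.5, Tnf at 64.9 ± 23.9 and Il1a at 40.0 ± 37.9 in myeloid cells (n = 4 mice), and Osm had no UMI in endothelial or stromal cells. Of 14 cytokine and pattern receptors, 9 were tested in epithelial, 9 in stromal, 6 in endothelial and 11 in myeloid cells and none was called. The oncostatin receptor gene Osmr was at 296 ± 21.5 CPM in endothelial, 128.2 ± 45.1 in stromal and 0.0656 ± 0.102 in epithelial cells, and the shared subunit gene Il6st was at 334 ± 46.2 in endothelial, 479 ± 163.1 in stromal and 6.84 ± 0.723 in epithelial cells. Lifr was at 388 ± 82.5 CPM in endothelial cells, and Tnfrsf1a, the TNF receptor gene, ran from 85.2 ± 23.03 in epithelial to 207.8 ± 64.3 in endothelial cells.

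Of 13 transcription factors and feedback genes, 13 were tested in epithelial, 8 in stromal, 9 in endothelial and 13 in myeloid cells and none was called. Cebpb, which encodes a C/EBP factor, was at 1362 ± 453 CPM in myeloid, 444 ± 314 in stromal, 92.0 ± 11.5 in epithelial and 85.1 ± 41.4 in endothelial cells. Zfp36, Nfkbia and Socs3, which encode inhibitors of inflammatory signaling, were each highest in myeloid cells as well, at 1289 ± 635, 668 ± 205 and 455 ± 459 CPM. Socs3, a feedback target of STAT3, had log2 fold changes of 1.46 (SE 0.58) in endothelial and -1.72 (SE 0.71) in myeloid cells, with edgeR adjusted p-values of 0.985 and 1.00, and the test of the difference between classes gave an adjusted p of 1.00.

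Of 15 receptors and partners of the products, 5 were tested in epithelial, 6 in stromal, 5 in endothelial and 8 in myeloid cells and none was called. Eng and Tgfbr2, through which Lrg1 is known to act on TGF-beta signaling, were at 806 ± 207.2 and 661 ± 84.7 CPM in endothelial cells, and Cd36 and Lrp1 were highest in endothelial (1754 ± 161.2) and stromal cells (414 ± 180.2). Of 11 genes of iron handling, 9 were tested in epithelial, 3 in stromal, 2 in endothelial and 6 in myeloid cells and none was called. The ferritin genes Fth1 and Ftl1 were at 12816 ± 5146 and 8557 ± 1579 CPM in myeloid cells, the heme oxygenase gene Hmox1 was at 156.1 ± 33.1 in myeloid cells and 2.61 ± 2.04 in epithelial cells, and Heph, the iron exit oxidase of enterocytes, was at 116.1 ± 22.6 in epithelial cells.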

How the data were processed

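The authors made 10x Genomics 3′ v3.1 libraries, 1 per mouse, and deposited raw UMI counts, genes by barcodes, which Cell Ranger made on mm10 with a Cre sequence added. The paper's methods name another version of Cell Ranger than the 4.0.0 of the submitters' processing notes. The 4 matrices were used, and a deposited count table that joins the libraries gave only its set of 18407 genes, the base of each cell's mitochondrial share.

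Cells were clustered with scanpy 1.11.5 under the study's settings (at most 10% mitochondrial UMIs, mean count of at least 0.001, 10000 UMIs per cell, 15 components, 15 neighbors, Leiden resolution 0.5), with the 8 genes left out of the variable genes. Names came from the study's marker table and took 3 or more detected markers. The automatic Scrublet threshold marked 13 cells (0.232%), so doublets were kept and the 292 highest scores removed as an alternative. Counts were summed per mouse and class, or per type with at least 10 cells in every mouse, and tested with edgeR 4.0.16 (quasi-likelihood test, filterByExpr, TMM, Benjamini-Hochberg adjustment over all genes tested). An SE is the log2 fold change divided by the square root of F. The code was tested on simulated data. Counts were not filtered otherwise.

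The members, lists and motifs were chosen with earlier results of these data known. The text names all members, each list's called genes and its 4 most abundant genes over the classes, and the 3 genes most like a member with at least 50 UMIs. Cp and Socs3's fold changes, subclusters and pairs of genes in the same cell were chosen after their values were seen. Alternatives were DESeq2 1.42.0, no TMM, no gene filter, a replicate block, each mouse left out, a 20% mitochondrial limit, members among the variable genes, resolution 1.0 and doublets removed. The mouse is the replicate and depth limits small sums, as intervals and limits of a 0 cover counting error only.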

Additional observations from a re-analysis of the deposited data

Results flagged for a closer look

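The barcodes over 10% mitochondrial UMIs, which the main comparisons left out, held some of the same transcripts above the level of the controls, in each case through EC-Foxc-DKO 2. The genes given here were picked because their mean over EC-Foxc-DKO mice was well above both controls, so that this order was fixed by the choice. Lcn2 was at 154.0 CPM in those of EC-Foxc-DKO 2, against 3.95, 8.85 and 3.91 in control 1, control 2 and EC-Foxc-DKO 1. Saa3 was at 48.8 CPM there, against 1.32, 6.79 and 4.43 in the same order. Saa1 was at 25.4 CPM, against 4.79, 2.23 and 3.94, and Hp at 14.0 CPM, against 1.44, 0.945 and 1.13. The removed barcodes of EC-Foxc-DKO 1 were within or below the range of the controls for Saa1, Saa3, Lcn2 and Hp.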

How the results depend on the processing

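Genes called in the comparisons between genotypes, 0 in each class and type with every mouse and 4 in the test between classes, depended most on which mice and genes entered. With no filter on low genes the calls were 85 in epithelial, 2 in stromal, 114 in endothelial, 57 in myeloid, 63 in BEC-like, 162 in Bottom enterocyte-like, 103 in Crypt-like and 48 in Macrophage 2-like cells, and 67 between classes. DESeq2 called 7 in epithelial, 2 in endothelial, 1 in BEC-like, 6 in Bottom enterocyte-like and 4 in Crypt-like cells and 0 between classes. Between classes there was 1 call at the 20% mitochondrial limit and 2 without TMM, and with the highest Scrublet scores removed there were 2 calls in endothelial cells. With 1 mouse left out, where the single mouse took its spread from the other genotype, the calls ran from 0 to 6 in epithelial, 0 to 43 in stromal, 57 to 146 in endothelial, 1 to 8 in myeloid, 26 to 43 in BEC-like, 0 to 859 in Bottom enterocyte-like, 3 to 15 in Crypt-like and 9 to 435 in Macrophage 2-like cells, and 2 to 163 between classes. The 859 calls were without EC-Foxc-DKO 1 and the 435 without control 1. The causes were not tested.

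With 1 mouse left out, the epithelial log2 fold change ran from -0.33 to 7.82 for Lcn2, -1.41 to 2.06 for Saa3, 2.27 to 3.93 for Saa1, -1.79 to 2.22 for Saa2 and 0.97 to 3.98 for Lrg1. In stromal cells it ran from 0.62 to 2.72 for Steap4 and 2.24 to 3.77 for Saa3, and in endothelial cells from -0.87 to 0.34 for Lcn2 and 0.74 to 2.43 for Lrg1. In myeloid cells it ran from -0.34 to 10.15 for Lcn2, 0.87 to 8.43 for Saa3, 0.17 to 4.57 for Hp and -0.82 to 9.21 for Lrg1, and in Macrophage 2-like cells from -0.031 (without control 2) to 6.70 for Lrg1. The mean level over mice ran from 5.10 to 14.6 CPM for Saa1, 0.274 to 0.768 for Saa2 and 14.1 to 140.7 for Lcn2 in epithelial cells, 399 to 826 for Saa3 and 114.2 to 185.7 for Hp in myeloid cells, 387 to 583 for Lrg1 in endothelial cells and 0 to 14.3 for Ptx3 and 82.0 to 140.2 for Steap4 in stromal cells. With no filter on low genes, Lcn2 (3.96) and Lrg1 (3.19) passed the test in epithelial cells and Lrg1 (1.32) in endothelial cells. Calls rose in every class at that setting, as counted above, so that these members were not alone. Saa2 in epithelial cells turned to -0.69 with DESeq2, Lcn2 in endothelial cells to 0.28 at the 20% mitochondrial limit, and Lcn2 and Lrg1 in myeloid cells to -0.47 and -0.19 with the highest Scrublet scores removed. Thinned to 1000 UMIs per cell, the mean share of cells with a UMI was 1.05% for Saa1, 12.0% for Hp, 18.0% for Lrg1 and 6.02% for Steap4 in their leading class, as fewer UMIs entered. The counts that follow treat a member's fold change as stayed if its sign and call did not change, whatever its size. Saa1 and Saa3 were judged against their SE instead. Apart from mice left out, 219 values or calls stayed, 31 moved, 5 reversed and 8 came to pass the test, and with a mouse left out 93 stayed, 41 moved, 8 reversed and 6 came to pass it.

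The labels do not say that mice with the same number share a litter or day. The deviations of same-numbered mice correlated at 0.239 in epithelial, -0.191 in stromal, -0.0200 in endothelial and -0.0707 in myeloid cells. With so few mice these values cannot tell whether same-numbered mice share more than a number. The replicate block gave 2 calls in epithelial, 33 in endothelial, 2 in BEC-like and 3 in Bottom enterocyte-like cells, with log2 fold changes of 3.68 for Lcn2 and -1.26 for Saa2 in epithelial cells and 3.29 for Saa3 in myeloid cells. Crossed numbers in stromal cells, chosen after seeing the data, gave 0 calls and 107 genes at an unadjusted p under 0.05.

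Depth limits Ptx3, Saa2 and stromal cells of EC-Foxc-DKO 2, and the rebuilt cell names and the removal of most barcodes as over the mitochondrial limit limit every level.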
